A study of Homo sapiens with 35 samples.

Results

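Among endoderm cells made from H1, a widely used line of human embryonic stem cells, 431 cells were chosen for UMIs of S100A14, BST2, CCL2 and LYPD2 with at most 1 UMI of 8 mitotic genes. A UMI (unique molecular identifier) marks 1 captured RNA molecule. The chosen cells were those of the 72 h endoderm library with at least 5000 UMIs, at most 10% mitochondrial UMIs, at most 2 UMIs of the fluorescent protein mNeonGreen and at most 1 UMI summed over the mitotic genes (MKI67, TOP2A, PLK1, CCNB1, AURKA, TPX2, CENPA and HJURP), and with at least 3 UMIs summed over the 4 genes. They were 431 of 730 cells under the shared filters (59.0%, exact 95% interval 55.4 to 62.6), of 2650 cells that passed the UMI and mitochondrial limits, of 6321 barcodes in the library and of 18831 in the 3 single-cell libraries. The comparison cells were the 95 cells under the same filters with 0 UMIs of the 4 genes, and the other 204 cells had 1 or 2. Of the chosen cells 284 had 0 and 147 had 1 UMI of the mitotic genes. Because measured UMIs of 1 library chose the cells, their levels against the comparison cells are a description with no test, and the intervals cover counting error only.

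The single-cell libraries held endoderm at 72 h (labelled AA+CHIR-AA), mesoderm at 72 h (labelled STEMdiff Mesoderm Induction) and primitive streak cells at 36 h (labelled AA+CHIR-AA), each 1 library. In bulk, sorted definitive endoderm at 72 h was labelled BRD+CHIR-BRD-BRD, JNJ+CHIR-JNJ-JNJ, BRD+LoAA+CHIR-BRD+LoAA-BRD+LoAA or, as the control, AA+CHIR-AA-AA, with 2 libraries each. Unsorted bulk cells at 6 h and 24 h were labelled BRD+CHIR, JNJ+CHIR, AA+CHIR, CHIR or BRD, and untreated at 6 h, with 2 libraries each. The untreated pair at 24 h was not analysed here. All of these came from H1 cells, so every group is 1 line. Per the labels, Activin A (AA), which signals through the receptors that Nodal uses, was added at 100 ng/ml and CHIR99021 (CHIR), an inhibitor of GSK3 that activates Wnt signalling, at 3 µM on day 1. In the other groups the compounds known by the code names BRD and JNJ, or BRD with an addition labelled LoAA, stand where AA stands in the control.

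Definitive endoderm is the germ layer that forms the lining of gut and airways and the liver and pancreas, and it is induced by high Nodal or Activin signalling. Its cells switch on the transcription factors SOX17 and FOXA2 and the chemokine receptor CXCR4, while the Nodal antagonists LEFTY1, LEFTY2 and CER1 are made in response to the same signal. BST2 (tetherin) is a membrane protein that holds budding enveloped viruses on the cell surface, S100A14 is a calcium-binding protein of epithelia, CCL2 is a chemokine that attracts monocytes, LYPD2 is a member of the LY6 and uPAR family of surface proteins, and ERBB4 is a receptor tyrosine kinase for neuregulins.

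Of the genes that chose the cells, 3 lie on different chromosomes (GRCh38, GENCODE 29, all protein-coding): S100A14 on chromosome 1 from 153614255 to 153616986, BST2 on chromosome 19 from 17402939 to 17405648 and CCL2 on chromosome 17 from 34255218 to 34257203. S100A16, a gene of the S100A14 family, occupies 153606886 to 153613145 on chromosome 1, on the same strand, with 1109 bases between the 2 genes. Promoters of 300 bases, 250 before and 50 after the start, were found for 2 of the 4 genes in the RefSeq table (GRCh38.p14), and are shown because these genes give the cells their name. Capitals mark matches, on either strand, to 7 motifs that were searched for. An interferon response-type motif, AANNGAAA, was in 22.8% of 35116 RefSeq promoters of this length. A STAT-type motif, TTCNNNGAA, was in 7.66% of them. A SOX-type motif, ACAAT, was in 27.4% of promoters. A GATA-type motif, AGATAA, was in 10.3% of promoters. A forkhead-type motif, TGTTTAC, was in 3.42% of promoters. A T-box-type motif, TCACACCT, was in 0.980% of promoters. The TATA box, TATAAA, was in 11.5% of promoters.
BST2, chr19:17405581-17405880, minus strand: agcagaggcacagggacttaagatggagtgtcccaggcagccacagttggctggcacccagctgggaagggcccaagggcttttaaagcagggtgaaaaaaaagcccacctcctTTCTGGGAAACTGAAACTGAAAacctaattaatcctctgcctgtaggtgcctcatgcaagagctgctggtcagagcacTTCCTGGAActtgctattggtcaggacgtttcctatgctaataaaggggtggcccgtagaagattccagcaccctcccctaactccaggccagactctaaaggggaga
S100A14, chr1:153616276-153616575, minus strand: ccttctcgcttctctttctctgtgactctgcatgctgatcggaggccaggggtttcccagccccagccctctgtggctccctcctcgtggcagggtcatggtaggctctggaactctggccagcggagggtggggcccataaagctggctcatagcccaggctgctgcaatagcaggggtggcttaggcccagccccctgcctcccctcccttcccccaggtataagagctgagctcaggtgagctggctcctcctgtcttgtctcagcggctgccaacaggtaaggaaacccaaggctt
The BST2 promoter held 2 overlapping matches to the interferon response-type motif, at -128 to -121 and -122 to -115 from the start site, the first of which shares a base with a match to the STAT-type motif at -136 to -128. A further match to the STAT-type motif lies at -58 to -50. The S100A14 window held none of the 7 motifs. It lies inside the GENCODE 29 span of the gene given above, so it does not cover the start in that annotation. These matches are descriptions of letters, not of bound sites.

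BST2 was the gene that most of the chosen cells carried, and S100A14 the one that fewest carried. BST2 had a UMI in 401 of the 431 cells (93.0%) and supplied 50.9% of the UMIs of the 4 genes, with a median of 3 and a maximum of 12 per cell. CCL2 was seen in 252 cells (58.5%), LYPD2 in 187 (43.4%) and S100A14 in 100 (23.2%). S100A14 reached 21 UMIs in 1 cell and CCL2 reached 28, and 38 cells had at least 3 UMIs of S100A14. Most chosen cells carried more than 1 of the genes, with 101, 185, 111 and 34 cells carrying 1, 2, 3 and 4. The commonest sets were BST2 with CCL2 (101 cells), BST2 alone (92 cells) and BST2 with CCL2 and LYPD2 (70 cells). A minimum on a sum is met most often through the most abundant of the genes, so these shares are set by the choice. LYPD2 is a protein-coding gene at 142750150 to 142752534 on chromosome 8 (GRCh38). The sum of the 4 genes had a median of 5 and a maximum of 34, and 80 cells had at least 10. At the limit, 95 cells had a sum of 3, just inside, and 101 cells had a sum of 2, just outside, with no gap between them.

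**Figure D1:**
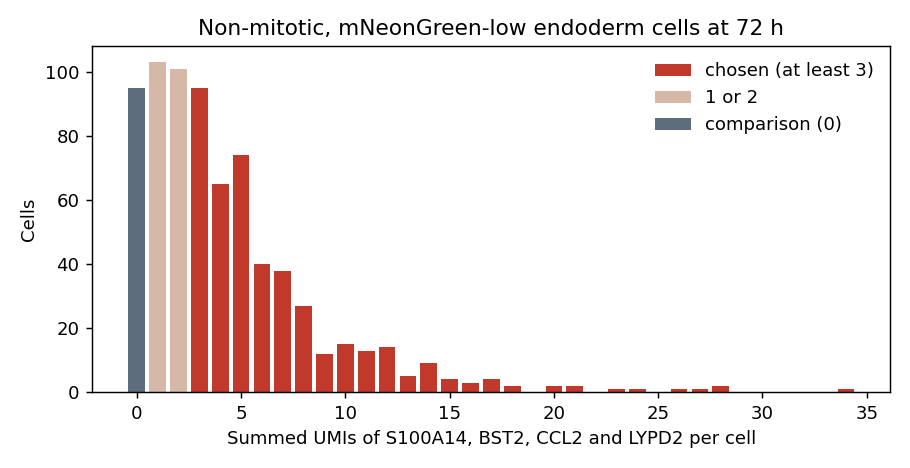
Number of cells (vertical axis) by summed UMIs of S100A14, BST2, CCL2 and LYPD2 per cell (horizontal axis) for the 730 cells under the shared filters. The 95 comparison cells at 0, the 204 cells at 1 or 2 and the 431 chosen cells from 3 up form 1 continuous distribution.

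Some endoderm genes were widespread in the chosen cells and others were seen in a minority, while genes of the other germ layers were mostly low. CER1 was found in all 431 chosen cells, against 93.7% of the comparison cells, at 3257 against 2446 CPM. CPM here is the gene's UMIs summed over the cells of a set per M (mega) UMIs of that set. SOX17 had a UMI in 58.0% of chosen cells and 21.1% of comparison cells. Of the other endoderm markers, GATA6 was in 74.2% and CXCR4 in 61.9% of chosen cells. HHEX was in 42.9%, PRDM1 in 30.9%, FOXA2 in 25.1%, GATA4 in 15.5% and KIT in 9.98%. In the mesoderm library, where 1621 cells passed the same filters, SOX17 was in 0 cells (exact upper limit 0.227%) and CER1 in 0.123%. There CXCR4 was in 30.7%, GATA6 in 11.7%, GATA4 in 4.38%, PRDM1 in 2.22%, KIT in 0.925%, FOXA2 in 0.740% and HHEX in 0%. Thinned to 5000 UMIs, CXCR4 was in 49.2% of chosen, 18.9% of comparison and 23.8% of mesoderm cells. Of the 16 mesoderm genes 4 were at 0 in the chosen cells (MSGN1, FOXF1, MEOX1 and MSX2), and the list summed to 69.7 CPM in chosen and 71.6 CPM in comparison cells. PDGFRA, a receptor of mesoderm that other lineages share, was in 12.8% of chosen cells and 10.1% of mesoderm cells, and MIXL1, a streak factor of both germ layers, in 64.7% and 72.6%. Thinned to 5000 UMIs, PDGFRA was in 5.80% of chosen cells and 7.53% of mesoderm cells, and MIXL1 in 47.6% and 60.1%. The 11 neural genes summed to 62.7 CPM in chosen and 100.4 CPM in comparison cells, with SIX3 at 37.8 and 37.7 CPM and SOX1 and PAX6 at 1 UMI each in the chosen cells. Of the 16 amnion and trophoblast genes 9 were at 0 in the chosen cells, and the list summed to 26.1 CPM in chosen and 26.4 CPM in comparison cells. The 16 extraembryonic endoderm genes summed to 331 CPM in chosen and 250 CPM in comparison cells, with TTR and AFP at 0 in both. The 22 gut and liver genes summed to 694 and 467 CPM, with APOA2, an apolipoprotein, at 122 and 57.8 CPM.

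Cells passing the same rule were rare outside the endoderm library. They were 431 of 730 filtered cells in endoderm, against 8 of 86 at 36 h (9.30%, 4.10 to 17.5) and 16 of 1621 in mesoderm (0.987%, 0.565 to 1.60). Median depths under the filters were 9536 UMIs in endoderm, 9112 at 36 h and 7369 in mesoderm. Thinned to 5000 UMIs per cell, S100A14 was found in 17.2% of the chosen cells and 0.617% of mesoderm cells, and BST2 in 80.7% and 13.8%. The chosen cells were picked for these genes, so that gap was set by the choice. Among all 730 filtered endoderm cells, thinned alike, S100A14 was found in 81 and BST2 in 445. In mesoderm they were found in 10 and 223 of 1621 cells. The endoderm library shared 53 barcodes with the 36 h library and 50 with the mesoderm library, of which 5 and 1 belonged to chosen cells. No doublet caller was applied.

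Within the 730 cells, S100A14, CCL2, LYPD2 and S100A16 tended to be found in the same cells. After thinning to 5000 UMIs, S100A14 was found in 28.7% of cells with S100A16 and 6.81% of cells without it. It was found in 21.7% of cells with LYPD2 and 8.20% of cells without, and in 19.2% of cells with CCL2 and 7.74% of cells without. CCL2 was found in 45.2% of cells with LYPD2 and 24.8% of cells without. BST2 was found in 61.7% of cells with S100A14 and 60.9% of cells without, in 67.1% of cells with CCL2 and 58.4% without, and in 67.1% of cells with ERBB4 and 56.2% without. The intervals of the S100A14 shares with and without S100A16, LYPD2 and CCL2 did not overlap, nor did those of BST2 with and without ERBB4. Those of BST2 with and without S100A14 or CCL2 overlapped. The intervals cover counting error among cells of the same library, so whether they overlap is a description and not a test. The markers were chosen with earlier results of these data known, and S100A16 was named for its ratio in the same cells. Finding these genes together is therefore not independent evidence that they go together.

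**Figure D2:**
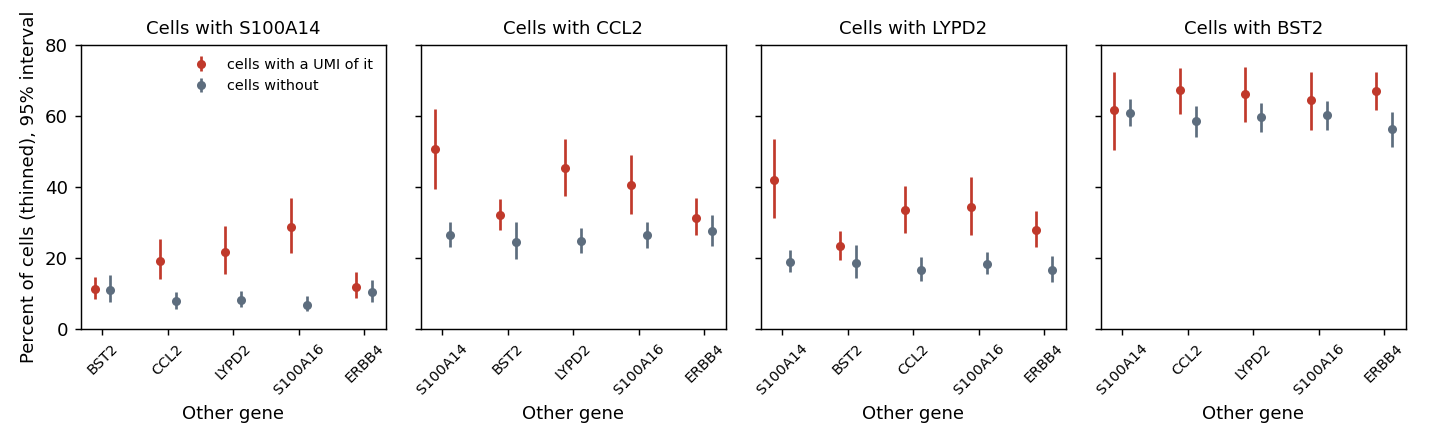
Percent of the 730 filtered cells, thinned to 5000 UMIs, with a UMI of S100A14, CCL2, LYPD2 or BST2 (one panel each), among cells with (red) and without (grey) a UMI of the gene on the horizontal axis. Bars are exact 95% binomial intervals. S100A14 stands at 28.7% with S100A16 and 6.81% without, while BST2 stands near 61% whether or not S100A14 is present.

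The chosen cells carried more RNA of endoderm genes than the comparison cells. Of 2055 genes that reached 50 CPM in either set, 193 (9.39%) were at least 1.5-fold higher in the chosen cells and 78 (3.80%) at least 1.5-fold lower, and the median log2 ratio over genes with enough UMIs was 0.17. Of the 12 endoderm regulators and surface markers at this level, 9 were at least 1.5-fold higher and 0 lower. SOX17 stood at 116 CPM in chosen and 31.4 CPM in comparison cells (ratio 3.70, interval 2.47 to 5.77). CXCR4 stood at 156 and 54.0 CPM (ratio 2.90), and HHEX, a homeobox factor of early foregut, at 63.2 and 36.4 CPM (ratio 1.73). LHX1, a LIM homeobox factor of the node and anterior endoderm, stood at 1058 and 640 CPM (ratio 1.65). FOXA2, below the level set for naming, stood at 33.3 and 6.28 CPM.

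The Nodal antagonists LEFTY1 and LEFTY2, the Wnt receptor FZD5 and S100A16 were among the 20 genes with the highest ratio. LEFTY1 stood at 890 CPM in chosen and 306 CPM in comparison cells (ratio 2.90) and LEFTY2 at 805 and 260 CPM (ratio 3.10). These paralogs are alike enough in sequence that reads may be shared between them. NODAL itself stood at 200 and 185 CPM (ratio 1.09). In the Nodal and Activin list, 4 of 9 genes at level were higher, among them SMAD2, a signal transducer, at 75.4 and 36.4 CPM, and FST, an Activin antagonist, at 55.4 and 33.9 CPM. In the Wnt list, 4 of 6 were higher, and these were the receptors FZD5 (149 and 47.7 CPM), FZD7 (112 and 57.8 CPM) and FZD8 (72.6 and 42.7 CPM) and the antagonist SFRP1 (169 and 90.4 CPM). SEMA3E, a secreted semaphorin, had the highest ratio, 3.82 (57.5 and 15.1 CPM). S100A16 stood at 75.9 and 26.4 CPM (ratio 2.88), while its relatives S100A10 (60.1 and 144 CPM) and S100A11 (457 and 699 CPM) were lower in the chosen cells. ERBB4 stood at 240 and 113 CPM (ratio 2.13) and LY6E, of the LYPD2 family, at 422 and 234 CPM (ratio 1.81). In cholesterol synthesis, 4 of 8 genes at level were higher, with SQLE, which oxidises squalene, at 90.2 and 50.2 CPM.

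Of the 26 genes of the interferon and antigen presentation list 6 were at level. Among these, 0 were at least 1.5-fold higher and 1 was lower, IFITM3, a membrane protein that blocks viral entry, at 349 CPM in chosen and 550 CPM in comparison cells. Against 9.39% and 3.80% of all genes at level, counts this small say little about the list. The IFITM3 ratio of 0.635 was 0.779 with at least 1% mitochondrial UMIs on both sides and 0.891 against cells with 1 or 2 UMIs of the 4 genes. ISG15 stood at 66.9 and 82.9 CPM and B2M at 97.7 and 127 CPM. IFIT1 and MX1 had 2 and 1 UMIs in all chosen cells.

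All 6 metallothioneins at level, proteins that bind zinc and copper, were at least 1.5-fold lower. MT1X stood at 32.9 CPM in chosen and 230 CPM in comparison cells, MT1G at 124 and 542 CPM and MT2A at 159 and 451 CPM. Reads of these near-identical genes may be shared among them. CYR61 and CTGF, secreted matrix-associated proteins, stood at 5.64 and 57.8 CPM and at 7.98 and 61.5 CPM. The neuropeptides NTS (31.2 and 166 CPM) and GAL (209 and 810 CPM) and the actin-binding genes TAGLN (120 and 491 CPM) and CALD1 (73.5 and 244 CPM) were also among the 12 lowest. Of 7 pluripotency genes at level 2 were lower and 1 higher, and the list summed to 1916 CPM in chosen and 1888 CPM in comparison cells. POU5F1, the core pluripotency factor, stood at 321 and 506 CPM (ratio 0.635). TERF1, which binds telomeres, stood at 67.2 and 131 CPM, and SALL4, a zinc finger factor, was the higher one, at 123 and 76.6 CPM. SOX2 stood at 3.52 and 23.9 CPM. ID1 and ID2, targets of BMP signalling, stood at 20.7 and 56.5 CPM and at 24.0 and 59.0 CPM. They were the 2 lower genes among 3 at level in the 13-gene BMP list, with 0 higher. That list summed to 356 CPM in chosen and 369 CPM in comparison cells, with a median log2 ratio of 0.26 over 8 genes. BMP2 was higher in the chosen cells, at 44.9 and 25.1 CPM, below the level set for naming. BMP signalling itself was not tested.

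Depth and mitochondrial share moved with these groups. The chosen cells had a median of 10035 UMIs and 2492 genes, against 7539 UMIs and 1993 genes, and thinned to 5000 UMIs they had 1568 against 1457 genes. Under 1% mitochondrial UMIs were seen in 25 of 431 chosen cells (5.80%) and 36 of 95 comparison cells (37.9%). With cells of at least 1% on both sides, an alternative chosen after seeing the data, 406 and 59 cells remained, SOX17 had a ratio of 3.24 and S100A16 of 2.57. LHX1 (1.26), HHEX (1.47), GSC (1.47), FST (1.14), FZD7 (1.45) and FZD8 (1.39) were then under 1.5-fold. MT1X then had a ratio of 0.248, and DDIT4, a stress-induced inhibitor of mTOR, a ratio of 1.05 in place of 0.271. JUN then had a ratio of 0.829 in place of 0.468, and PMAIP1 a ratio of 0.373 in place of 0.564. The mNeonGreen mean was 0.965 UMIs in chosen and 0.358 in comparison cells. With the comparison cells weighted to the depth of the chosen cells, 204 genes were at least 1.5-fold higher and 87 lower, and the log2 ratio of SOX17 was 2.18, against 1.89 unweighted. Among cells with 0 mNeonGreen UMIs on both sides, the log2 ratio of SOX17 was 2.38.

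**Figure D3:**
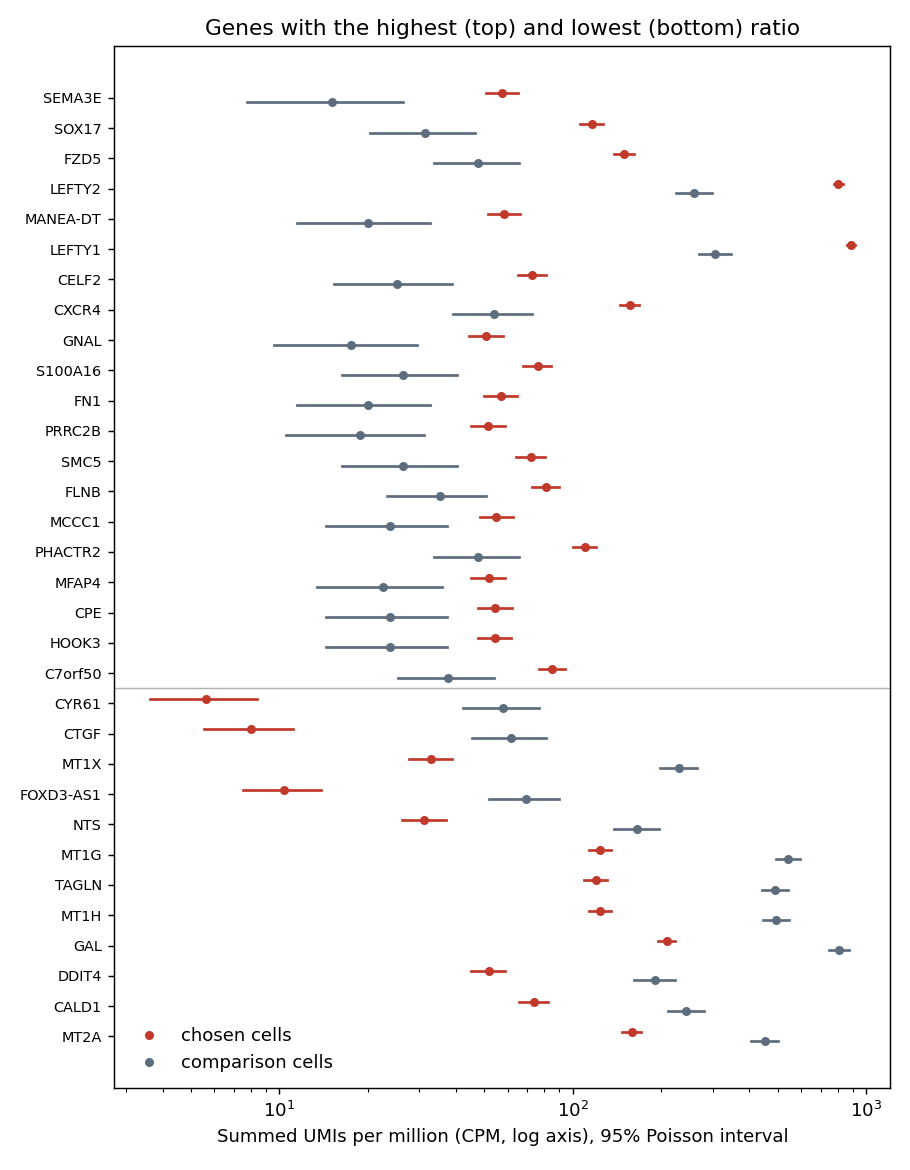
UMIs per M (log axis) in chosen (red) and comparison (grey) cells for the 20 genes with the highest and the 12 with the lowest ratio, with exact 95% Poisson intervals. SOX17 lies at 116 in chosen and 31.4 in comparison cells, and CYR61 at 5.64 and 57.8.

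Levels of the genes given here differed with the summed UMIs of the 4 genes, and LEFTY1 and SOX17 rose from each bin to the next. LEFTY1 stood at 306, 394, 455, 631, 726, 945 and 1360 CPM in cells with sums of 0, 1, 2, 3, 4 to 5, 6 to 9 and 10 or more. SOX17 stood at 31.4, 74.0, 84.8, 90.9, 105, 127 and 146 CPM over the same bins, so its largest step was between 0 and 1. S100A16 stayed between 25.9 and 36.5 CPM up to a sum of 3 and reached 159 CPM at 10 or more. NTS stood at 166 CPM at a sum of 0 and at 9.47 CPM at 10 or more. Against the 204 cells with 1 or 2 UMIs, also a comparison chosen after seeing the data, 53 genes were at least 1.5-fold higher and 20 lower. SOX17 then had a ratio of 1.46, S100A16 of 2.44 and LEFTY1 of 2.10. LHX1 (1.02), GSC (1.03), HHEX (1.09), SMAD2 (1.20) and FZD7 (1.31) were under 1.5-fold. Of 41 named genes that were higher against the comparison cells, 19 were at least 1.5-fold higher here, and 29 were with at least 1% mitochondrial UMIs on both sides.

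**Figure D4:**
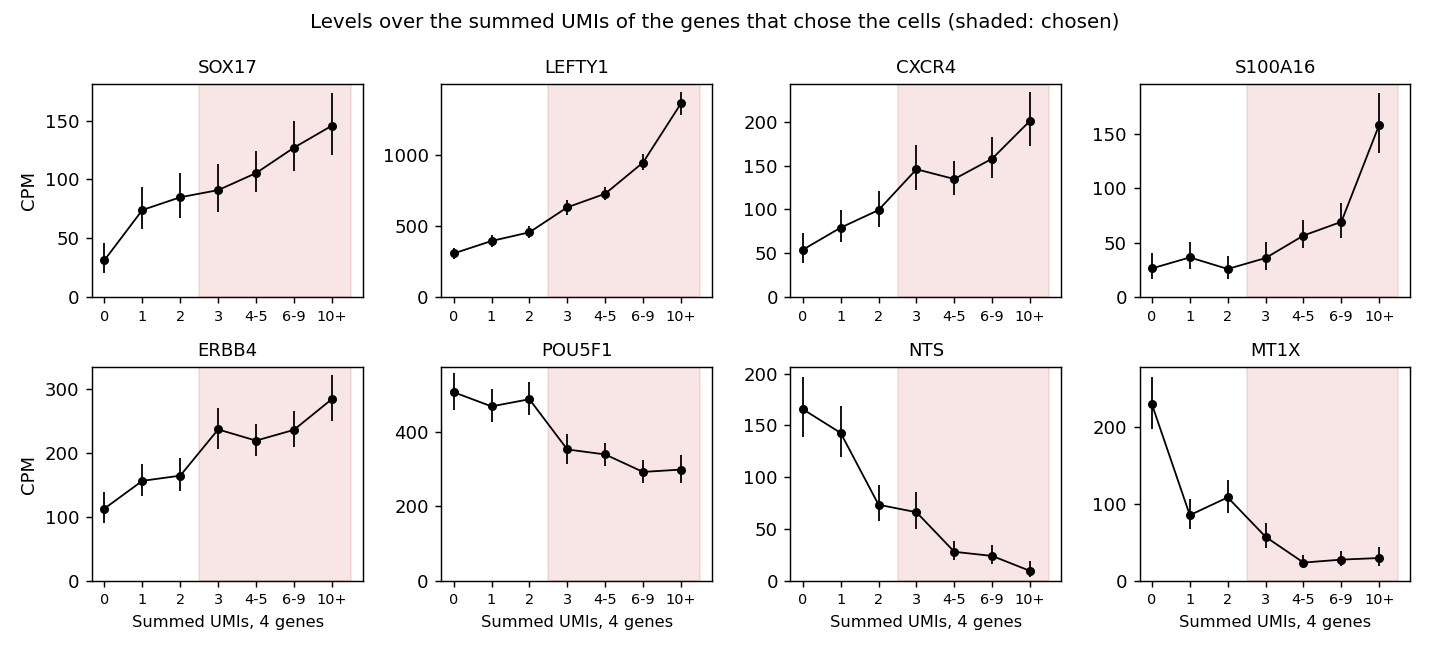
UMIs per M (vertical axes) of 8 genes in cells grouped by summed UMIs of the 4 genes (horizontal axes), with exact 95% Poisson intervals; the shaded bins are the chosen cells. LEFTY1 is highest, at 1360, and NTS lowest, at 9.47, in cells with 10 or more.

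The chosen cells with S100A14 differed from those without it in few genes. Among 2071 genes at level, 41 (1.98%) were at least 1.5-fold higher in the 100 cells with S100A14 than in the 331 without, and 23 (1.11%) lower. Median depth was 10186 and 10012 UMIs. S100A16 led, with 169 CPM in cells with and 47.9 CPM in cells without S100A14 (ratio 3.53, interval 2.82 to 4.42). LEFTY1 stood at 1337 and 756 CPM, FOXA2 at 50.9 and 28.1 CPM and FZD5 at 209 and 131 CPM. DKK4, a Wnt antagonist, stood at 34.6 and 146 CPM, GYPB, a glycophorin of red cells, at 86.6 and 228 CPM and MT1G at 47.9 and 146 CPM. ERBB4 stood at 239 and 241 CPM, a ratio of 0.995 with an interval of 0.857 to 1.15. The 252 cells with CCL2 had 1116 CPM of LEFTY1, against 566 CPM in the 179 without. CER1 went the other way in both splits, with 2821 CPM in cells with and 3388 CPM in cells without S100A14, and 2829 CPM in cells with and 3870 CPM in cells without CCL2. The 401 cells with BST2 and the 30 without had 855 and 1414 CPM of LEFTY1, 112 and 176 CPM of SOX17, 142 and 255 CPM of FZD5 and 71.6 and 139 CPM of S100A16, while CER1 stood at 3305 and 2551 CPM. Cells without 1 gene had to reach the sum through the other 3.

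In bulk endoderm made with the compounds, which played no part in choosing the cells, the RNA of most of the leading genes was lower than in AA endoderm. Those genes were named from a library made with AA, partly for reaching 50 CPM there, which favours genes that are high with AA. The shares over all genes tested are therefore not a matched background for them. Fewer cells of a type and less RNA per cell cannot be told apart in bulk. All 3 comparisons use the same 2 AA libraries, so they are not independent. Of 13889 genes tested with edgeR's quasi-likelihood test (Benjamini-Hochberg adjusted p at most 0.05), 1349 (9.71%) were higher and 1605 (11.6%) lower with BRD, 1190 (8.57%) higher and 1378 (9.92%) lower with JNJ, and 1231 (8.86%) higher and 1462 (10.5%) lower with BRD+LoAA. With upper-quartile scaling 57.3%, 57.3% and 56.1% of the calls were higher, in place of 45.7%, 46.3% and 45.7%. Of the 19 of the 20 highest genes in the table, 14 were lower and 1 higher in each comparison, and 13 were lower in all 3. Their median log2 changes were -1.15, -1.10 and -0.78 with BRD, JNJ and BRD+LoAA, against 0.01, 0.01 and 0.02 over all genes tested. Nothing in the labels ties the replicates to separate cultures, so the p-values may measure technical spread.

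Among the 5 marker genes, CCL2 and ERBB4 were lower with every compound. CCL2 stood at 5.38 and 6.21 CPM with BRD, 9.07 and 6.12 CPM with JNJ and 4.51 and 2.73 CPM with BRD+LoAA, against 26.9 and 25.6 CPM in AA libraries. No compound library reached the AA libraries, and the log2 changes were -2.18 ± 0.32, -1.81 ± 0.31 and -2.84 ± 0.34 (SE; adjusted p 0.000332, 0.0013 and 7.96e-05). ERBB4 stood at 356 and 370 CPM with BRD, 434 and 300.3 CPM with JNJ and 227 and 305 CPM with BRD+LoAA, against 1216 and 1222 CPM in AA libraries, and the groups again did not overlap. Its log2 changes were -1.76, -1.74 and -2.20. BST2 stood at 36.2 and 49.2 CPM with BRD, 42.6 and 40.0 CPM with JNJ and 31.4 and 32.7 CPM with BRD+LoAA, against 53.7 and 60.1 CPM in AA libraries. All 6 compound libraries lay below both AA libraries, and only the change with BRD+LoAA passed the test (log2 change -0.82, adjusted p 0.00533, and 0.0606 without AA replicate 2). The change with BRD passed without BRD replicate 2 (log2 change -0.65, adjusted p 0.0402). S100A14 stood at 5.70 and 7.06 CPM with BRD, 5.41 and 9.89 CPM with JNJ and 9.62 and 13.99 CPM with BRD+LoAA, against 20.04 and 8.74 CPM in AA libraries. The spread of its AA libraries was wide, and no change passed the test (adjusted p 0.0589, 0.146 and 0.641), although that with BRD did without AA replicate 2 (adjusted p 0.0247). LYPD2 was at most 1.95 CPM in any library and was too low to test.

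SOX17, LEFTY1 and LEFTY2 were lower with every compound, and FN1 was higher. SOX17 stood at 219 and 258 CPM with BRD, 226 and 257 CPM with JNJ and 241 and 220 CPM with BRD+LoAA, against 385 and 398 CPM in AA libraries (log2 changes -0.73, -0.71 and -0.76). LEFTY1 stood at 1.74 and 2.07 CPM with BRD, 4.71 and 4.69 CPM with JNJ and 0.451 and 3.45 CPM with BRD+LoAA, against 185 and 141 CPM in AA libraries (log2 changes -6.41, -5.13 and -6.46). LEFTY2 was at most 1.17 CPM in any compound library, against 465 and 304 CPM in AA libraries. S100A16 stood at 14.2 and 15.2 CPM with BRD, 15.2 and 18.5 CPM with JNJ and 25.9 and 15.8 CPM with BRD+LoAA, against 41.8 and 29.4 CPM in AA libraries. Its changes with BRD and JNJ passed the test (adjusted p 0.00327 and 0.00955) and did not without AA replicate 1 (adjusted p 0.0679 and 0.145), and that with BRD+LoAA missed it (adjusted p 0.0512). CXCR4 passed only with BRD+LoAA (log2 change -0.70, adjusted p 0.00857, 0.164 without AA replicate 1 and 0.0686 without BRD+LoAA replicate 1). Differences between the compounds were not tested. FN1, the matrix protein fibronectin, stood at 2228 and 2688 CPM with BRD, 2492 and 1676 CPM with JNJ and 2229 and 1998 CPM with BRD+LoAA, against 429 and 448 CPM in AA libraries (log2 changes 2.47, 2.24 and 2.27). FZD5, PRRC2B and C7orf50 passed in no comparison. FZD5 stood at 1734 and 2185 CPM with BRD, 2326 and 1846 CPM with JNJ and 1723 and 1880 CPM with BRD+LoAA. Both AA libraries lay below all of these, at 1547 and 1564 CPM (log2 changes 0.32, 0.41 and 0.21). PRRC2B and C7orf50 were lower in every compound library than in both AA libraries.

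**Figure D5:**
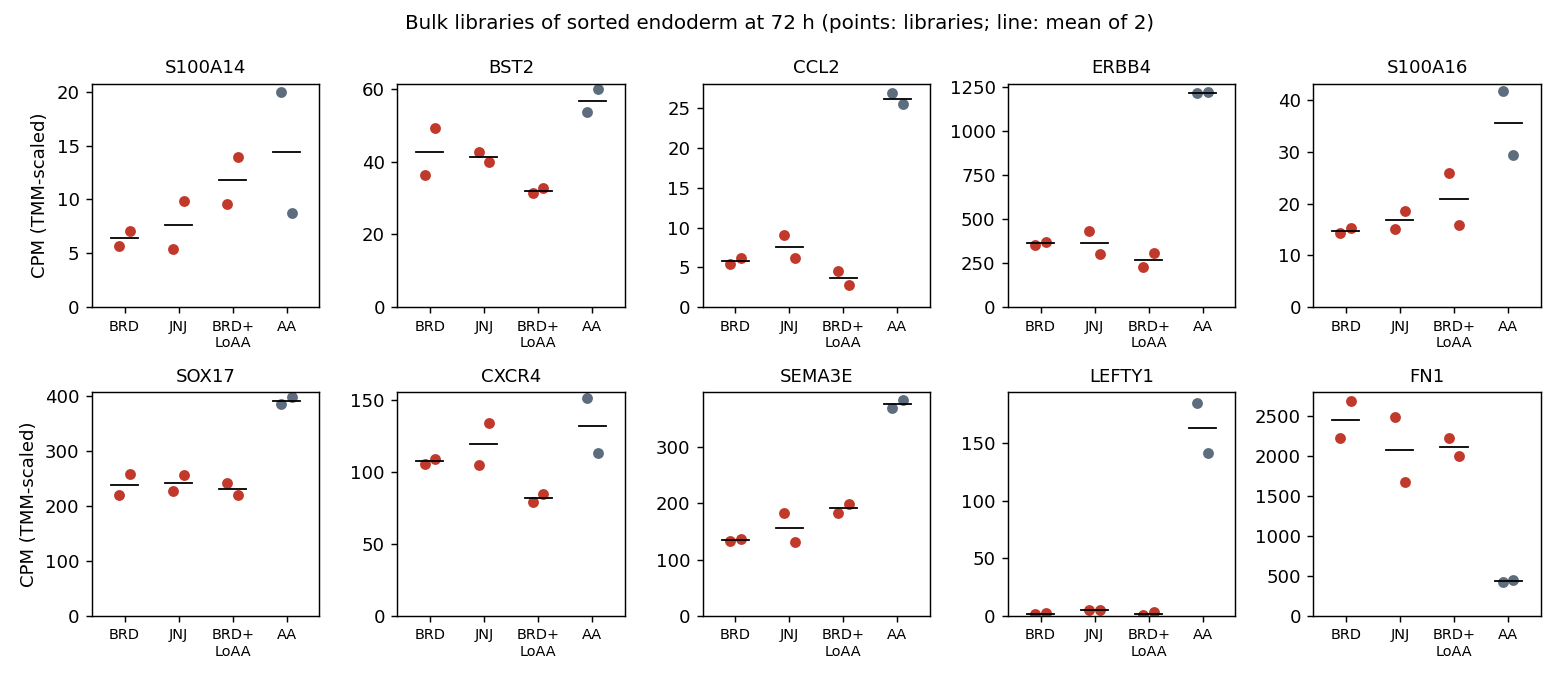
CPM with TMM scaling (vertical axes, from 0) in each bulk library of sorted endoderm at 72 h for 10 genes, with compound groups in red and AA in grey; lines are means of 2 libraries. CCL2, ERBB4, SOX17 and LEFTY1 lie lower in all 6 compound libraries than in both AA libraries, and FN1 lies higher.

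Genes that were low in the chosen cells gave few calls. Of the 12 lowest genes 8 were tested, and 1, TAGLN, was lower in each comparison (log2 changes -1.51, -1.65 and -1.09), with 0 higher. Of all genes tested, 11.6%, 9.92% and 10.5% were lower with BRD, JNJ and BRD+LoAA, so counts this small say little about the set. TAGLN stood at 59.3 and 85.2 CPM with BRD, 60.0 and 71.7 CPM with JNJ and 94.1 and 99.1 CPM with BRD+LoAA, against 235 and 175 CPM in AA libraries. MT1X, MT1G and MT2A were too low to test, at 1.43 CPM or less in every 72 h library. FOXD3-AS1, also among the 12, had no entry in bulk.

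Before 72 h, 4 of the 5 markers were low in all 22 bulk libraries of 11 groups. ERBB4 lay between 0 and 5.09 CPM, CCL2 between 0 and 1.85 CPM and S100A14 between 0 and 3.69 CPM, while LYPD2 was at 0 throughout. BST2 lay between 5.12 and 33.2 CPM, which reaches its level in the BRD+LoAA libraries at 72 h. Time and sorting cannot be told apart. Of the earlier libraries, only those of BRD without CHIR have title numbers that run on from the 72 h libraries. The levels before 72 h were therefore not tested against those at 72 h.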

How the data were processed

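Per the file headers, the deposited single-cell values are UMI counts per gene and barcode from Cell Ranger 3.0.2, on GRCh38 per the submitters' processing notes. The authors deposited bulk expected counts per gene (16103 genes, 30 libraries), and the submitters' notes list Salmon 1.4.0, limma 3.48.1, edgeR 3.34.0 and Seurat 4.0.2 without their roles. The endoderm library held 35.4 M (mega) UMIs, and bulk libraries at 72 h held 4.57 to 7.59 M counts, at 24 h 6.75 to 49.5 M and at 6 h 9.65 to 17.2 M.

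UMIs were summed per set of cells and given as CPM with exact Poisson intervals, shares with exact Clopper-Pearson intervals (both 95%), in Python 3.11.15 with scipy 1.17.1. Molecules of 1 cell are not independent replicates of a condition, so these intervals cover counting error only. Thinning drew 5000 UMIs per cell. List medians used genes with at least 20 pooled UMIs. Bulk expected counts were rounded, and the two-sided quasi-likelihood F-test of edgeR 4.0.16 (R 4.3.3; TMM scaling after filterByExpr) was run over the 8 libraries at 72 h together, with 4 residual degrees of freedom, adjusted over all genes by Benjamini-Hochberg at 0.05. Alternatives used DESeq2 1.42.0, limma 3.58.1, other filters and scaling, and other limits on the cells. The interferon response-type motif was shortened after its first matches were seen. Older symbols were matched through RefSeq synonyms.

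Named were the 5 markers, the 20 genes with the highest and 12 with the lowest ratio that reached 50 CPM (without the genes of the choice and clone identifiers), and up to 4 members of each of 31 lists past 1.5-fold, or 2 by level. FOXA2, CER1, NODAL, SOX2, ISG15, B2M, IFIT1, MX1, DKK4, GYPB, GATA4, GATA6, PRDM1 and KIT were chosen after their values were seen. The cells, markers and lists were chosen with earlier results of these data known.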

Additional observations from a re-analysis of the deposited data

How the results depend on the processing

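The share of filtered cells in the choice was 72.9%, 46.0% and 37.1% with at least 2, 4 and 5 summed UMIs, 46.8% and 65.0% with at least 3000 and 8000 UMIs per cell, 66.4% with no mNeonGreen limit and 47.0% with 0 mNeonGreen UMIs, 51.3% with no mitotic limit, 26.3%, 48.5% and 55.1% with BST2, CCL2 and LYPD2 left out, 36.8% after thinning and 64.0% with at least 1% mitochondrial UMIs. Genes at least 1.5-fold higher numbered 315 with at least 3000 UMIs, 327 with 0 mNeonGreen UMIs (124 lower), 74 with no mitotic limit (37 lower), 115 after thinning, 119 with at least 1% mitochondrial UMIs and 53 against cells with 1 or 2 UMIs (20 lower). At 2-fold they numbered 48 (21 lower), with at least 20 CPM 659 (256 lower) and with at least 100 CPM 66 (44 lower). Among genes past 1.5-fold, log2 ratios changed sign for DDIT4 (0.70), CXCL12 (0.92) and FST (-9.07e-05) at 8000 UMIs, for DDIT4 (0.071) and CXCL12 (0.97) with at least 1% mitochondrial UMIs and for LHX1 (-0.074) without BST2; the cause was not tested. Of 19 named genes within 1.5-fold, 14 had ratios on both sides of 1 over the settings. Of the other values of single named genes, 1281 moved by less than the counting interval and 277 by more. In bulk, leaving out 1 library gave 1607 to 2326 calls with BRD, 1420 to 1807 with JNJ and 1348 to 1802 with BRD+LoAA, in place of 2954, 2568 and 2693. Without AA replicate 1 they were 1607, 1420 and 1348, without AA replicate 2 they were 1785, 1537 and 1544, and without BRD+LoAA replicate 2 they were 1635; fewer libraries enter each such fit, and a lone library is assumed to vary like the other groups. Of the 20 highest genes, 11, 10 and 11 were lower without AA replicate 1, in place of 14 each. The replicate block gave 2654, 2319 and 2443 calls. Same-numbered libraries shared only a number, with correlations of their deviations from -0.195 to 0.214. In bulk, each named gene gave a value per comparison and alternative. Of these values 20 lost their call, 23 gained one and 887 stayed called or uncalled. Values that stayed uncalled could change sign. LYPD2, MT1X, MT1G and MT2A were too low to test in bulk at 72 h, and the 95 comparison cells limit ratios of genes with few UMIs.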

Other observations

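The non-mitotic cells above the mNeonGreen limit, 440 in number, were not chosen for the 4 genes. BST2, which was part of the choice, stood at 344 CPM in the chosen cells and 283 CPM in these cells, and SOX17 at 116 CPM in the chosen cells and 182 CPM in these cells. BST2 was in 93.0% of chosen cells and 84.5% of these cells. S100A14 was in 23.2% of chosen cells and 25.2% of these cells, CCL2 in 58.5% and 60.7%, LYPD2 in 43.4% and 48.4%, LEFTY1 in 81.0% and 93.2%, and FZD5 in 61.5% and 74.5%. Median depth was 10035 and 10259 UMIs. Cells above the mitotic limit, 1480 in number, had 137 CPM of BST2 and 126 CPM of SOX17. Among the chosen cells, BST2 was lower in the 100 cells with S100A14 (305 CPM) than in the 331 without (356 CPM), while CCL2 stood at 213 and 156 CPM and LYPD2 at 133 and 82.7 CPM. A sum over the 4 genes chose both sets, so cells without S100A14 had to hold more of the other 3 to be counted.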
